A study of Mus musculus with 4 samples.

Results

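The genes described here encode 3 fibroblast growth factor (FGF) receptors (Fgfr1, Fgfr2 and Fgfr3), 2 FGF ligands (Fgf1 and Fgf2) and 5 inhibitors that act on the pathway inside the cell (Spry1, Spry2, Spry4, Spred1 and Dusp6). They were taken by symbol, and all 10 were found among the 55421 genes of the deposited count files, each under 1 Ensembl identifier. FGF ligands bind, together with heparan sulfate chains at the cell surface, to receptor tyrosine kinases, which signal through RAS and the kinase ERK to the nucleus. The pathway limits itself, because ERK activity induces Sprouty, SPRED and dual-specificity phosphatase genes whose products act back on RAS, RAF or ERK. In the brain, FGF2 is a growth factor for neural stem cells, and astrocytes carry FGFR1, FGFR2 and FGFR3.

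Total RNA was sequenced from mouse astrocytes of the C57BL/6J strain that had been differentiated in culture from neural stem cells. The astrocytes were infected with a lentivirus carrying a control short hairpin RNA (control shRNA, 2 libraries) or one against the histone demethylase gene Phf8 (Phf8 shRNA, 2 libraries). The stem cells of both groups had been grown with EGF at 20 ng/ml and FGF at 10 ng/ml, whereas the medium listed for differentiation held 10% fetal bovine serum and no added growth factor. The sources used here do not give the form of FGF added to the stem cells, the duration of the differentiation, the interval after infection or the number of hairpins against Phf8. The libraries are called biological replicates, with nothing on whether they were separate cultures or infections, so p-values measure the spread between these libraries, which may be technical.

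The libraries held 36839530 to 44724759 reads assigned to genes. Mitochondrial genes took 22.6% and 23.9% of the reads with control shRNA and 29.6% and 30% with Phf8 shRNA. Most of these reads were mitochondrial ribosomal RNA, at 21.2% and 22.5% with control shRNA and 27.8% and 28.2% with Phf8 shRNA. In the fit without mitochondrial genes and the 20 most abundant genes, each FGF gene kept its call. Beyond that fit, the part of this difference in the values of the FGF genes was not tested. Phf8 itself was lower by 18.5% (53.2 ± 0.152 against 43.3 ± 1.44 CPM, mean ± SD, n = 2 per group; adjusted p = 1.7e-06). This call was lost when the biological coefficient of variation, the relative spread between replicates, was set to 0.2 (adjusted p = 0.639 in edgeR's likelihood ratio test). CPM (counts per 1000000 reads of a library) was scaled with TMM, the trimmed mean of M-values. Each adjusted p is from the quasi-likelihood test of edgeR, adjusted by Benjamini-Hochberg over all 21042 genes tested. The 8 astrocyte markers were all detected. Their summed level was 9046 to 9319 CPM with control shRNA and 5744 to 6438 CPM with Phf8 shRNA. Of these markers, 2 were higher (Slc1a2 and Gja1) and 5 lower (Gfap, Aqp4, Aldh1l1, S100b and Aldoc), with log2 fold changes from -1.76 to 2.85. The sum is weighted to the most abundant marker, which had up to 176437 reads in a library. Markers of other cells moved with the groups too. The sum over 10 oligodendrocyte lineage markers was 645 to 693 CPM with control shRNA and 1163 to 1196 CPM with Phf8 shRNA (9 higher, 0 lower), and that over 8 neuronal markers 255 to 259 and 511 to 516 CPM (6 higher, 0 lower). The sum over 6 markers of cycling cells was 68.7 to 70.3 and 18.9 to 22.9 CPM (0 higher, 6 lower). Over 6 microglial markers it was 3.03 to 3.20 and 3.38 to 3.81 CPM, with C1qa at 0 reads in every library, and 0 passed the test. Over 6 markers of neural stem or progenitor cells it was 1785 to 1813 and 1639.6 to 1801 CPM (3 higher, 2 lower). Over 6 endothelial or mural markers it was 16.5 to 17.2 and 25.2 CPM (4 tested, 1 higher, 2 lower, Cdh5 at 0 reads), and over 6 fibroblast markers 10.1 to 10.2 and 24.2 to 24.3 CPM (2 tested, 1 higher, 0 lower), with Pdgfrb, which is in both lists, the 1 that rose. The part of these cell types in the values of the FGF genes was not tested. In such bulk RNA, fewer cells of a type and less RNA per cell cannot be told apart.

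Of the 10 FGF genes, 3 rose (Fgfr2, Fgf1 and Spry2), 6 fell (Fgfr1, Fgfr3, Fgf2, Spry1, Spry4 and Dusp6) and Spred1 did not pass at an adjusted p under 0.05. Among all genes tested the share that passed was 52.1%, with 24.8% higher and 27.3% lower. The lowest of the FGF genes had a mean of 5.41 CPM, and among the 10861 genes at or above it the share was 64.5% (3112 higher and 3894 lower). Of the FGF genes, 7 changed by 1.5-fold or more, against 25.9% of all genes tested and 20.2% of those at or above the lowest FGF gene. The median absolute log2 fold change was 0.83 over the FGF genes and 0.32 over all genes tested, while the median with its sign was -0.47 and 0.01. Values of both groups did not overlap for any of the 10 genes, which was also so for 73.9% of all genes tested. Each role held genes that moved in opposite directions. The test rests on a biological coefficient of variation of 3.64% estimated from n = 2 libraries per group. With that coefficient set to 0.2, where 15.7% of all genes passed, Fgf1, Fgf2, Fgfr3, Spry4 and Dusp6 still passed, and Fgfr1, Fgfr2, Spry1 and Spry2 did not.

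**Figure D1:**
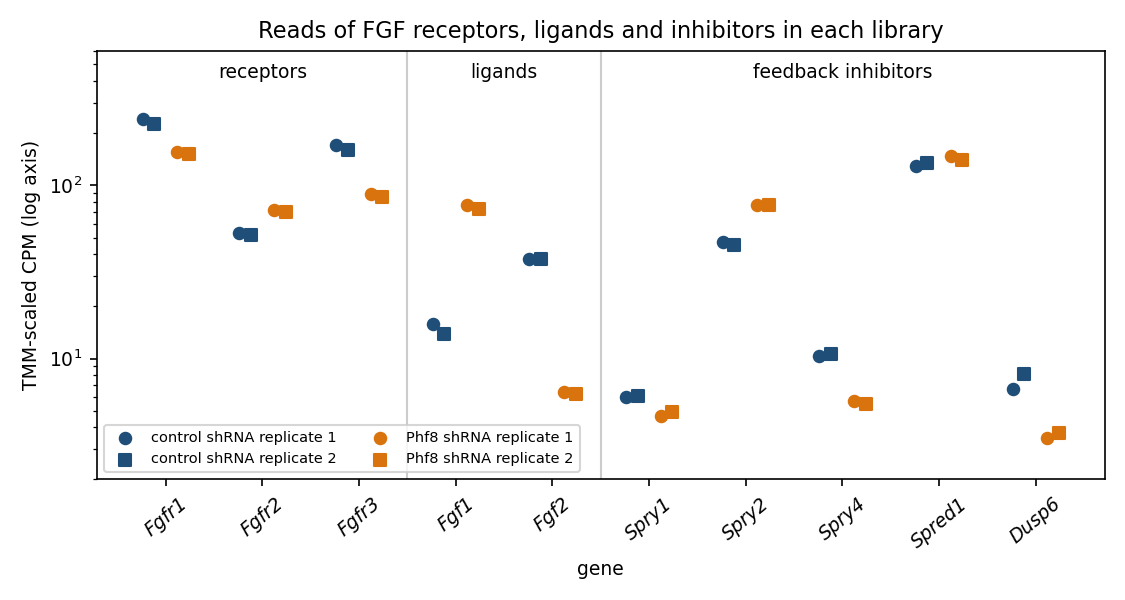
TMM-scaled CPM (log axis) of the 10 FGF genes in each of the 4 libraries, grouped by role; circles are replicate 1 and squares replicate 2, blue control shRNA and orange Phf8 shRNA. Fgf1 lies near 14.8 CPM with control and 74.8 CPM with Phf8 shRNA, and Fgf2 shows the opposite order, from 37.5 to 6.32 CPM.

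The ligand genes showed the largest differences of the 10, in opposite directions. Fgf1 encodes acidic FGF, a ligand that lacks a signal peptide for conventional secretion and binds all FGF receptors. It lies on the minus strand of chromosome 18 from 38838673 to 38929472 (mm10 build). Its level was 15.8 and 13.8 CPM with control shRNA and 76.9 and 72.7 CPM with Phf8 shRNA. Both Phf8 shRNA libraries were thus far above both control libraries. The rise was 5.05-fold, a log2 fold change of 2.34 ± 0.06 (SE), with an adjusted p of 2.5e-277.

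Fgf2 encodes basic FGF, which is also released without a signal peptide. It lies on the plus strand of chromosome 3 from 37348346 to 37410108. With control shRNA its level was 37.6 and 37.4 CPM, and with Phf8 shRNA 6.43 and 6.21 CPM. The libraries of each group were close to each other, and both Phf8 shRNA libraries were low. The fall was 5.92-fold (log2 fold change -2.57 ± 0.08 SE, adjusted p = 2.0e-214). Both ligand genes passed the test with at least a 4-fold change, as did 4.18% of all genes tested. Exons of Fgf2 share 9.44% of their length with Nudt6 on the opposite strand, and the sources used here do not give the strand setting of the read counting. Nudt6 had 37 and 29 reads with control shRNA and 41 and 23 with Phf8 shRNA, few beside the 1625 and 1531 and the 278 and 228 reads of Fgf2.

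Because a longer transcript yields more reads, levels of different genes were compared per kilobase of the longest annotated transcript (RPKM, from the TMM-scaled CPM). On that scale the relation of the ligand transcripts turned over. Fgf1 made up 38.6% and 35.7% of the summed level of Fgf1 and Fgf2 with control shRNA, and 94.7% and 94.6% with Phf8 shRNA. The summed level of both was 10.3 and 9.75 RPKM in control and 20.4 and 19.3 RPKM with Phf8 shRNA, so that it was higher in both Phf8 shRNA libraries although Fgf2 was lower. These shares and sums were not tested.

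The 3 receptor genes did not move together. Fgfr1 (chromosome 8, 25513654 to 25575718, plus strand), whose product is the most widely expressed FGF receptor of the brain, had 242 and 226 CPM in the control and 157 and 152 CPM in the Phf8 shRNA libraries. Both Phf8 shRNA libraries were lower, and the fall was 1.51-fold (log2 fold change -0.60 ± 0.06 SE, adjusted p = 4.5e-25). Fgfr3 (chromosome 5, 33721674 to 33737068, plus strand) encodes the receptor that is known for its enrichment in astrocytes and their progenitors. It had 172 and 160.3 CPM with control shRNA and 88.9 and 86.0 CPM with Phf8 shRNA, again without overlap. It fell 1.90-fold, with a log2 fold change of -0.93 ± 0.06 (SE) and an adjusted p of 3.1e-59. Exons of Fgfr3 share 13.9% of their length with G630022F23Rik on the opposite strand, which had at most 82 reads in a library.

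Fgfr2 was the receptor gene that rose. It encodes a receptor that oligodendrocytes as well as astrocytes express, and lies on the minus strand of chromosome 7, where the deposited gene model runs from 130162451 to 133123350 and shares 3.04% of its exonic length with Ctbp2. Its level was 53.4 and 51.8 CPM in the control and 71.9 and 69.8 CPM in the Phf8 shRNA libraries. The rise was 1.35-fold (log2 fold change 0.43 ± 0.06 SE, adjusted p = 3.4e-13). The summed oligodendrocyte lineage markers were also higher in both Phf8 shRNA libraries, as given above, and their part in the rise of Fgfr2 was not tested. Reads were counted per gene, so splice forms of the receptors, which differ in the ligands they bind, were not distinguished.

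Per length, Fgfr1 was the most abundant receptor transcript in all 4 libraries. It held 47.7% and 47.5% of the summed receptor level in control and 45.6% in each Phf8 shRNA library. The share of Fgfr3 was 40.3% and 40.1% in control and 30.6% in each Phf8 shRNA library. The share of Fgfr2 was 12.2% ± 0.299 (SD, n = 2) in control and 23.8% in each Phf8 shRNA library. The summed receptor level was therefore lower and held relatively more Fgfr2, with a summed level of 101 and 94.3 RPKM in control and 68.3 and 66.1 RPKM with Phf8 shRNA.

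**Figure D2:**
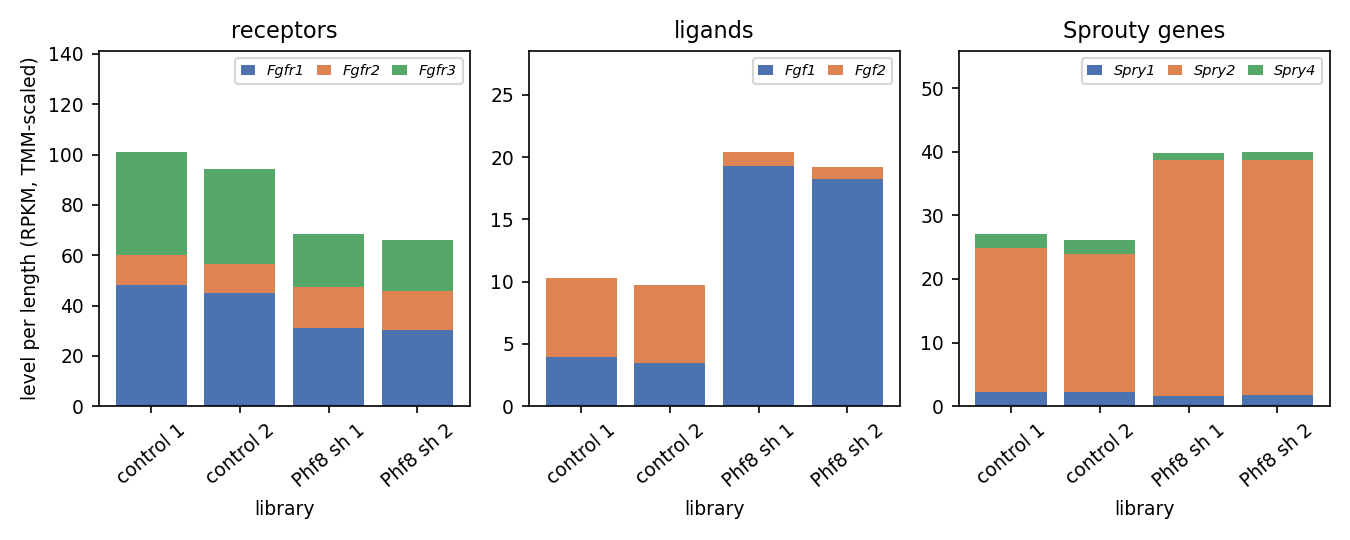
Stacked bars of the level per length (RPKM, TMM-scaled) of the receptor, ligand and Sprouty genes in each library, with a separate axis for each panel starting at 0. The ligand bars change from mostly Fgf2 to mostly Fgf1, the receptor bars shrink from 97.6 to 67.2 RPKM on average, and the Sprouty bars consist mainly of Spry2 in every library.

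Among the feedback inhibitors, Spry2 rose while Spry1, Spry4 and Dusp6 fell. Sprouty proteins are membrane-associated inhibitors of receptor tyrosine kinase signalling upstream of ERK. Spry2 (chromosome 14, 105891947 to 105896819, minus strand) had 47.1 and 45.3 CPM in the control and 77.2 and 77.3 CPM in the Phf8 shRNA libraries. Both Phf8 shRNA libraries were higher, by 1.67-fold (log2 fold change 0.74 ± 0.06 SE, adjusted p = 4.1e-37). Per length it made up 83.8% and 83.0% of the summed level of the 3 Sprouty genes in control and 92.8% and 92.7% with Phf8 shRNA. With that share, the summed Sprouty level was 27.0 and 26.1 RPKM in control and 39.9 RPKM in each Phf8 shRNA library, higher although 2 of its 3 genes were lower.

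Spry4 (chromosome 18, 38586247 to 38601415, minus strand) had 10.4 and 10.6 CPM with control shRNA, against 5.69 and 5.48 CPM with Phf8 shRNA. It fell 1.88-fold (log2 fold change -0.91 ± 0.10 SE, adjusted p = 5.8e-18). Spry1 changed least among the genes that passed. It had 5.99 and 6.11 CPM with control shRNA and 4.65 and 4.88 CPM with Phf8 shRNA, a fall of 1.27-fold (log2 fold change -0.35 ± 0.12 SE, adjusted p = 0.00951). That call was lost without control shRNA replicate 2 (adjusted p = 0.0788), without Phf8 shRNA replicate 1 (0.0580), with upper-quartile scaling (0.0585) and in DESeq2 (0.105). Of the exonic length of Spry1, 24.4% is shared with Gm42922 on the opposite strand, which had at most 5 reads in a library.

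Dusp6 encodes a cytoplasmic phosphatase that removes phosphate from ERK, and its transcript is widely used as a readout of FGF and ERK activity. The gene lies on the plus strand of chromosome 10 from 99263231 to 99267489. It had 6.68 and 8.09 CPM with control shRNA and 3.49 and 3.73 CPM with Phf8 shRNA. The control libraries differed more from each other than the Phf8 shRNA libraries did, yet both stayed above them. The fall was 2.04-fold (log2 fold change -1.03 ± 0.12 SE, adjusted p = 3.7e-16). Spred1, a Sprouty-related inhibitor that brings neurofibromin to RAS at the membrane, had 129.8 and 134 CPM with control shRNA and 148 and 139.7 CPM with Phf8 shRNA (chromosome 2, 117121374 to 117182279). All of its values lay within a narrow range, and its log2 fold change of 0.12 ± 0.06 (SE) did not pass (adjusted p = 0.0514). It passed without Phf8 shRNA replicate 2 (0.17 ± 0.05, adjusted p = 0.00699), with upper-quartile scaling (0.21 ± 0.05, 9.8e-05), in limma-voom (0.12 ± 0.05, 0.0414) and with a filter of 1 CPM in 2 libraries (0.14 ± 0.05, 0.0137), so its side of the threshold depends on the settings.

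**Figure D3:**
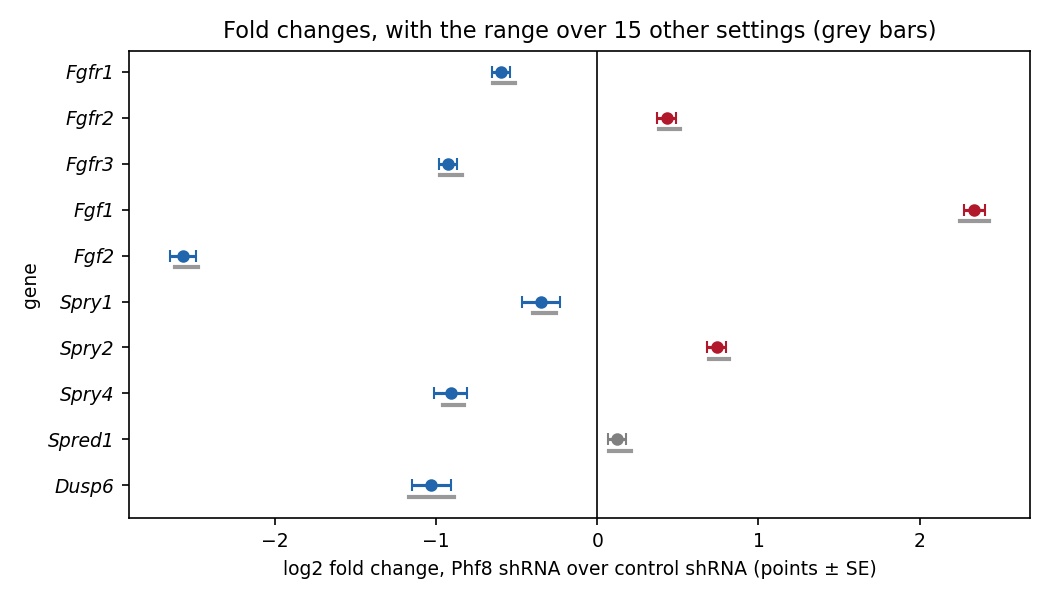
Log2 fold change of Phf8 shRNA over control shRNA for the 10 FGF genes (points with SE; red higher, blue lower, grey did not pass) and, as grey bars, the lowest and highest value over the main and 15 other settings. No bar crosses 0, and the bars of Fgf1 (2.25 to 2.43) and Fgf2 (-2.62 to -2.48) lie farthest from it.

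The sequence before the transcription start is shown for 2 inhibitor genes that fell, Dusp6 and Spry1, and for 1 that rose, Spry2, since the products act on the same pathway and the genes moved in opposite directions. The sequences are from RefSeq (GRCm38.p6), each 250 bases long, 5′ to 3′ on the strand of the gene and ending just before the start, with CpG dinucleotides in capitals. Dusp6 is chr10:99262981-99263230 (plus strand), Spry1 is chr3:37639697-37639946 (plus strand) and Spry2 is chr14:105896820-105897069 (minus strand).
Dusp6: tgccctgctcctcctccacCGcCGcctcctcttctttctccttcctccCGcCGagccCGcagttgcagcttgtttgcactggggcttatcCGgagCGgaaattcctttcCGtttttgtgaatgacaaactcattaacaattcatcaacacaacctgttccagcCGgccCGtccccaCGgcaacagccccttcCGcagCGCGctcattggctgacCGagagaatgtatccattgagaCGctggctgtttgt
Spry1: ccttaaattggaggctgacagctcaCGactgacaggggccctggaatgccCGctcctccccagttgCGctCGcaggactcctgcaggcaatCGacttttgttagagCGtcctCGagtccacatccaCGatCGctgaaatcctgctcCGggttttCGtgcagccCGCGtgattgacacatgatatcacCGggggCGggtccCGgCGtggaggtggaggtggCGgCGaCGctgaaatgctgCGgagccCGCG
Spry2: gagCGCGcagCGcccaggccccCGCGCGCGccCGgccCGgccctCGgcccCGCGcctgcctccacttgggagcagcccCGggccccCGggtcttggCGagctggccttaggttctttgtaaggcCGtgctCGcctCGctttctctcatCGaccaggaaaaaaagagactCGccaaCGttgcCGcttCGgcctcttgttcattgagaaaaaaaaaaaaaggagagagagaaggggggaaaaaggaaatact

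These stretches held 16, 23 and 23 CpG dinucleotides for Dusp6, Spry1 and Spry2. In RefSeq windows of 300 bases, which run from 250 bases before to 50 after a start, the same genes had 19, 29 and 28. The median over all 32851 such windows was 7 and the upper quartile 20, so the windows of Spry1 and Spry2 were above and that of Dusp6 just under the upper quartile. Windows were found for 7 of the 10 FGF genes (8 windows, as Fgfr3 has 2). Searched on both strands, GGGCGG (the core of the binding sequence of SP1) was in 5 of these 8 windows, those of Fgf2, Fgfr3 (both), Spred1 and Spry1, and in 35.7% of all windows. CACGTG (an E-box) was in the window of Fgfr2 and in 7.15% of all windows. For the windows of Fgfr2 and Spred1, the 50 bases after the start were not found in any annotated transcript of the gene. The matches in these windows may therefore not lie before a start that the annotation holds. TGANTCA (an AP-1 sequence), TGACGTCA (a cAMP response element) and CCGGAAGT (an ETS sequence) were in none of the 8, and in 7.81%, 1.79% and 3.89% of all windows. No binding or histone mark was measured in these data.

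Ordered by level per length, the 10 genes in the control libraries began with Fgfr1 (46.4 ± 2.34 RPKM) and Fgfr3 (39.2 ± 2.08 RPKM). Spry2 (22.2 ± 0.674 RPKM) and Spred1 (22.0 ± 0.470 RPKM) came next and did not differ beyond their spread. Then came Fgfr2 (11.9 ± 0.282 RPKM), Fgf2 (6.29 ± 0.0305 RPKM), Fgf1 (3.73 ± 0.352 RPKM) and Dusp6 (2.65 ± 0.352 RPKM). Spry4 (2.22 ± 0.0224 RPKM) and Spry1 (2.19 ± 0.0268 RPKM) were lowest, with overlapping values. In the Phf8 shRNA libraries Spry2 led (37.0 ± 0.0125 RPKM), before Fgfr1 (30.6 ± 0.729 RPKM), Spred1 (23.9 ± 0.942 RPKM), Fgfr3 (20.6 ± 0.483 RPKM), Fgf1 (18.8 ± 0.753 RPKM) and Fgfr2 (16.0 ± 0.344 RPKM). Spry1 (1.72 ± 0.0576 RPKM), Dusp6 (1.29 ± 0.0603 RPKM), Spry4 (1.17 ± 0.0320 RPKM) and Fgf2 (1.06 ± 0.0261 RPKM) followed at lower levels, and no neighbours in this order overlapped. Fgf1 thus stood between Fgfr3 and Fgfr2 on this scale, and Fgf2 was last. The order depends on the length used. With the union of all exons (10328 bases for Fgfr2, against 4429 for its longest transcript), Fgfr2 came after Fgf2 in control (5.11 against 5.54 RPKM). With Phf8 shRNA, Fgf1 then came before Fgfr3 (13.7 against 12.2 RPKM) and Spred1 before Fgfr1 (21.2 against 15.6 RPKM).

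Other genes of the pathway were read from 7 lists of 98 genes, of which 97 were matched and 77 had reads enough to be tested. Of the 77, 67.5% passed, against 52.1% of all genes tested and 64.5% of those at or above the lowest of the 10 FGF genes. The share was thus near that of the 10861 genes at or above this level, of which 3112 rose and 3894 fell. Some of the 77, such as Fgf17, lay below this level, so the comparison is not matched in level. Among the 77, 19 rose, 33 fell and 25 did not pass, and the log2 fold changes had a median of -0.14. With a fold of at least 1.5 required, 14 were higher and 12 lower. With a biological coefficient of variation of 0.2 the counts were 9 and 11, and of the genes given below with their values Fgf14, Fgf17, Plcg1, Braf, Map2k1, Mapk3, Il17rd, Dusp8 and Etv5 did not pass. Among 16 other secreted FGF ligands only 5 passed the filter. The 11 that did not had at most 8 reads in a library, and 6 of them (Fgf3, Fgf6, Fgf15, Fgf16, Fgf20 and Fgf21) had no read in any. Fgf17, a ligand of the FGF8 subfamily, was the 1 ligand gene of this list that passed the test. It was low, at 0.792 ± 0.187 CPM in control and 1.51 ± 0.440 CPM with Phf8 shRNA (log2 fold change 0.91 ± 0.25 SE, adjusted p = 7.3e-04). Its call was lost without control shRNA replicate 2 (adjusted p = 0.0575) and without Phf8 shRNA replicate 2 (0.0969). Together these 16 genes had 1.91 to 3.40 CPM in a library.

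Among 10 other receptors and co-receptors, 8 were tested, of which 5 rose and 2 fell (median 0.66). For comparison, 24.8% of all genes tested rose and 27.3% fell. Fgfr4, the remaining FGF receptor kinase, had at most 3 reads in a library and was not tested. Fgfrl1, which encodes an FGF receptor-like protein without a kinase domain, fell 1.90-fold from 77.3 ± 6.81 to 40.7 ± 0.268 CPM (adjusted p = 4.2e-56). Of the genes of membrane proteins known to bind FGF receptors, Ncam1, L1cam, Flrt1, Flrt2 and Flrt3 rose and Cdh2 fell. Ncam1, a neural cell adhesion molecule gene, rose 1.72-fold from 144 ± 2.98 to 248 ± 0.776 CPM (adjusted p = 4.3e-42). Flrt1 and Flrt2, which encode leucine-rich repeat membrane proteins, rose 2.37-fold and 1.97-fold (adjusted p = 1.1e-26 and 7.2e-21). The neuronal and oligodendrocyte lineage markers were higher in the same libraries, and their part in these values was not tested.

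The 3 tested genes of intracellular FGF homologous factors, which bind sodium channels rather than FGF receptors, all rose (median 1.13), as did 24.8% of all genes tested. Fgf11 went from 6.36 ± 0.823 to 16.9 ± 0.493 CPM, Fgf12 from 8.81 ± 0.717 to 19.3 ± 0.599 CPM and Fgf14 from 10.1 ± 0.633 to 15.9 ± 0.867 CPM, with a largest adjusted p of 5.4e-14. The neuronal markers, summing to 255 to 259 CPM with control shRNA and 511 to 516 CPM with Phf8 shRNA, moved in the same direction.

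FGF binding to its receptors depends on heparan sulfate and is modulated by secreted FGF-binding proteins. Of 10 tested genes of heparan sulfate enzymes and FGF-binding proteins, 0 rose and 7 fell, with a median log2 fold change of -0.22, beside 27.3% lower among all genes tested. The count of 7 was 4 with a biological coefficient of variation of 0.2, and 4 with a fold of at least 1.5 required. Sulf1 and Sulf2 encode extracellular sulfatases that remove 6-O-sulfate from heparan sulfate. Sulf1 went from 6.26 ± 0.00471 to 0.493 ± 0.120 CPM (log2 -3.64 ± 0.20 SE, adjusted p = 1.6e-73), with 25 and 15 reads left in the Phf8 shRNA libraries. Sulf2 fell 2.54-fold from 632 ± 21.9 to 249 ± 23.7 CPM (adjusted p = 9.3e-110). Ndst1, which encodes an enzyme that starts the sulfation of the chain, fell 2.20-fold from 367 ± 8.88 to 167 ± 0.240 CPM (adjusted p = 1.2e-84). Fgfbp3, which encodes a secreted FGF-binding protein, fell 2.31-fold (adjusted p = 1.5e-17). The other 3 that fell were Ext1, Ext2 and Hs2st1, with smaller changes.

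Adaptors and kinases between the receptors and ERK changed by small amounts in both directions. All 23 were tested, of which 5 rose, 9 fell and 9 did not pass (median 0.02, range -0.60 to 0.61). The shares among all genes tested were 24.8% higher and 27.3% lower. Of the 10861 genes at or above the lowest FGF gene, 3112 were higher and 3894 lower. Plcg1, the gene of a phospholipase that FGF receptors bind directly, rose 1.53-fold from 107 ± 6.18 to 163 ± 0.297 CPM (adjusted p = 1.2e-26). The kinase genes Braf, Map2k1 and Mapk3, which act one after the other in the cascade, fell 1.47-fold, 1.39-fold and 1.51-fold, with a largest adjusted p of 7.4e-16. The count of 5 higher genes was 10 with upper-quartile scaling, 3 in DESeq2, and 3 without control shRNA replicate 2 or without Phf8 shRNA replicate 1. With a biological coefficient of variation of 0.2, 0 genes of this list were higher and 0 lower, and with a fold of at least 1.5 required 1 was higher and 1 lower.

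Other feedback inhibitors also went both ways, with 3 of 15 higher and 7 lower (median -0.16), beside 24.8% higher and 27.3% lower among all genes tested. Dusp5, which encodes a nuclear ERK phosphatase, fell 4.51-fold from 9.93 ± 0.0227 to 2.18 ± 0.349 CPM (adjusted p = 2.8e-63), and 22.1% of its exonic length is shared with a gene on the opposite strand. Dusp7, a gene of another ERK phosphatase, rose 1.89-fold from 7.19 ± 0.166 to 13.6 ± 0.729 CPM (adjusted p = 2.6e-22). Dusp8, whose product acts mainly on the kinases JNK and p38, rose 1.65-fold (adjusted p = 5.2e-24). Il17rd, also known as Sef, encodes a membrane inhibitor of FGF signalling and rose 1.63-fold from 25.4 ± 0.272 to 41.4 ± 0.0830 CPM (adjusted p = 2.2e-27). Of the inhibitors given with their values, Spry2, Il17rd, Dusp7 and Dusp8 were thus higher where Spry1, Spry4, Dusp5 and Dusp6 were lower. The other genes of this list that fell were Spred3, Dusp4, Dusp10, Dusp14, Cbl and Rasa2, with smaller changes than Dusp5. Falls outnumbered rises in the main fit, but with a fold of at least 1.5 required 3 were higher and 1 lower. With a biological coefficient of variation of 0.2, 1 was higher and 1 lower.

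Transcripts that FGF and ERK signalling is known to induce went in both directions. Of 13 tested, 2 rose and 8 fell (median -0.36), beside 24.8% higher and 27.3% lower among all genes tested. The count of 8 was 5 with a biological coefficient of variation of 0.2, and 5 with a fold of at least 1.5 required. Etv1, Etv4 and Etv5 encode ETS factors of 1 subfamily that are standard FGF target genes. Etv5 went from 57.7 and 54.8 CPM in control to 38.0 CPM in each Phf8 shRNA library (log2 fold change -0.57 ± 0.06 SE, adjusted p = 9.1e-21). Etv4 rose from 3.37 and 4.01 to 8.39 and 8.04 CPM (1.16 ± 0.12 SE, adjusted p = 2.7e-21). Etv1 rose 1.88-fold from 75.5 ± 2.01 to 142 ± 1.94 CPM (adjusted p = 2.0e-57). These 3 related genes thus did not move together. Among the others, Ier3 fell 4.29-fold, Spsb1 3.72-fold and Fos 2.17-fold, with a largest adjusted p of 5.4e-73. Fos had 80.0 and 56.1 CPM in the Phf8 shRNA libraries, a wider spread than in the control libraries (149.8 and 146 CPM). The summed markers of cycling cells were lower in the same libraries, and their part in these values was not tested.

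**Figure D4:**
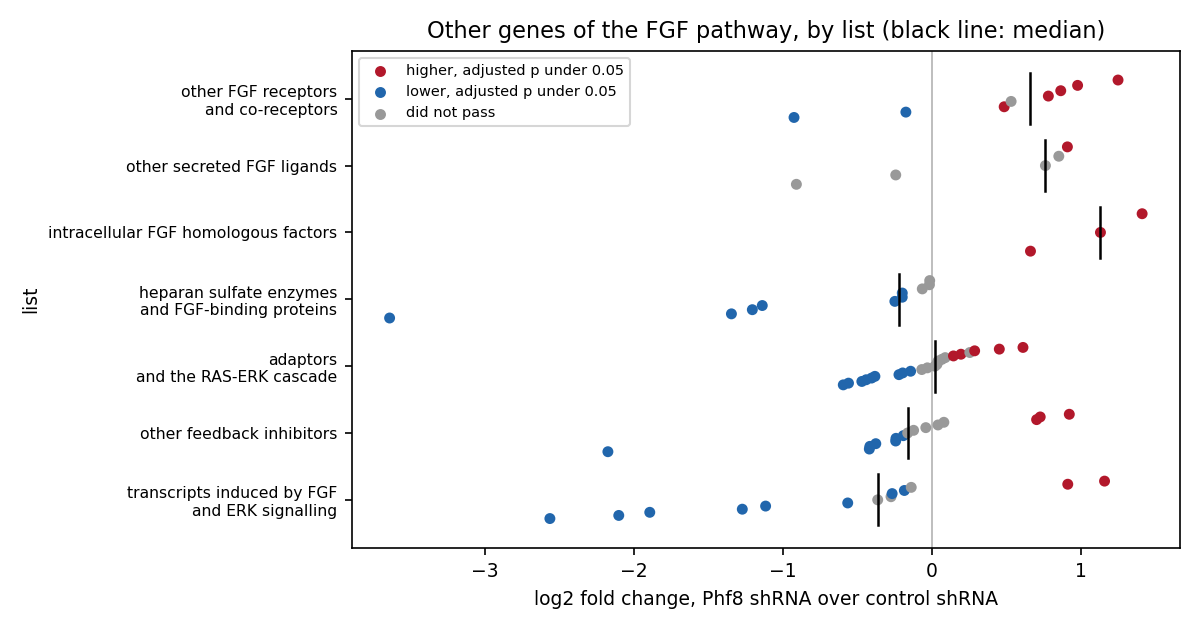
Log2 fold change of Phf8 shRNA over control shRNA for each tested gene of the 7 pathway lists (red higher, blue lower, grey did not pass; the black line is the median of a list). The list of heparan sulfate enzymes and FGF-binding proteins has no red point and a median of -0.22, and the 3 intracellular FGF homologous factors are all red.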

How the data were processed

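RNA from 4 libraries of cultured mouse astrocytes was measured by sequencing. Per the labels' protocols, 500 ng of total RNA was depleted of ribosomal RNA and made into stranded libraries. The deposited files give a whole-number count of reads per gene, used as raw counts; per the submitters' processing notes the tools were HISAT2, HTSeq and DESeq2 with the mm10 build, without versions. The sources used here give neither the strand setting nor the annotation release. The depth was 36839530 to 44724759 reads per library, which bounds the precision of the genes with few reads.

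Groups were taken from the titles. All genes were tested in edgeR 4.0.16 (R 4.3.3) with the quasi-likelihood F test, filterByExpr, TMM scaling and no covariate, two-sided, called at a Benjamini-Hochberg adjusted p under 0.05. Standard errors are the absolute log2 fold change divided by the root of F. No p was adjusted over a list and no list was tested as a set. Symbols were matched by identifier; lengths and exon overlaps are from GENCODE M21 (GRCm38), which held 55154 of the 55421 identifiers. Motif searches used RefSeq windows. Beside the 10 FGF genes, the text names Phf8, up to 4 called genes of each of 7 pathway lists with the smallest p, and Etv4 and Etv5; genes counted in lists are named where few, after their values were seen. The genes, lists and alternatives were chosen with earlier results of these data known. The fit was tested on simulated counts with 50 genes changed at each fold (20655 genes tested): of the genes changed 1.25-fold it recovered 36, of those changed 1.5-fold 43, and all 50 of those changed 2-fold and 4-fold, with 5 unchanged genes called. The simulated counts used the spread estimated from these libraries, so they cannot test whether that spread is too small. Only genes above a minimum level were changed, and far fewer than the 52.1% called in the data. Alternatives were other scalings, DESeq2 1.42.0, limma-voom (limma 3.58.1), a robust fit, other filters, a replicate block, leaving out each library, a set biological coefficient of variation (BCV), other thresholds and other lengths.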

Additional observations from a re-analysis of the deposited data

How the results depend on the processing

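Over 15 other settings, each of the 10 FGF genes kept its direction. Of 150 values, 138 kept their side of the threshold, 8 no longer passed and 4, all of Spred1, passed where the main value did not. Of the 8, 4 were Spry1 under the settings given above. The other 4 arose when the BCV was set to 0.2: Fgfr1 (adjusted p = 0.173), Fgfr2 (0.408), Spry1 (0.58) and Spry2 (0.0647) no longer passed in edgeR's likelihood ratio test, whereas Fgf1 (1.5e-12), Fgf2 (1.7e-14), Fgfr3 (0.0128), Spry4 (0.0198) and Dusp6 (0.00774) did. With that BCV, 1 of the 3 higher FGF genes remained called, 9 pathway genes were higher (19 in the main fit) and 11 lower (33), and among all genes 1262 were higher (5225) and 2043 lower (5740), 15.7% of those tested. With a fold of at least 1.5 required, 14 pathway genes were higher and 12 lower, and of all genes 2531 were higher and 2917 lower. Scaling moved the median log2 fold change of all genes from 0.01 to 0.10 (upper quartile) or -0.04 (library size alone). With the replicate number as a block, each FGF gene kept its call. Deviations of same-numbered libraries were not correlated across genes (correlation -0.0010). That value cannot show whether same-numbered libraries shared a culture or infection. With the union of exons as length, the control and Phf8 shRNA values were 45.5% and 45.1% for the receptor share of Fgfr1, 9.81% and 19.8% for Fgfr2, 44.7% and 35.2% for Fgfr3, 52.1 and 34.7 RPKM for the receptor sum, 32.9% and 93.6% for the ligand share of Fgf1, 8.26 and 14.6 RPKM for the ligand sum, and 7.88% and 4.11% for the Sprouty share of Spry1. The Phf8 shRNA share of Spry2 was then 92.9% and the Sprouty sum 39.8 RPKM, or 39.2 RPKM with library size alone.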

Other observations

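Fgf2 and Spry1 are neighbours on chromosome 3, 229 kb apart, and Spry4 and Fgf1 on chromosome 18, 237 kb apart, so the protein-coding genes tested within 250 kb of each pair were read, a choice made after the values were seen. On chromosome 3, apart from Fgf2 and Spry1, 3 of the other 5 genes fell and 0 rose. Among all genes tested, 27.3% fell and 24.8% rose. Those that fell were Cetn4, which encodes a centrin (6.83 ± 0.184 to 1.39 ± 0.193 CPM, log2 fold change -2.28 ± 0.15 SE, adjusted p = 9.0e-48), Bbs12, a gene of ciliary protein transport (6.26 ± 0.0625 to 4.23 ± 0.453 CPM, adjusted p = 1.3e-05), and Il21, an interleukin gene that was near 0 (0.509 ± 0.0975 to 0.0388 ± 0.0222 CPM). Spata5, which lies between Fgf2 and Spry1, did not pass (log2 fold change 0.13 ± 0.07 SE), so the fall did not cover every gene of the stretch. Nudt6, which overlaps the end of Fgf2, did not pass either (0.03 ± 0.29 SE), but it had at most 41 reads in a library.

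On chromosome 18, apart from Fgf1 and Spry4, 1 gene rose and 2 fell, while 52.1% of all genes tested passed in either direction. Arhgap26, which encodes a GTPase-activating protein and lies next to Fgf1, rose with it from 7.11 ± 0.307 to 20.6 ± 1.04 CPM (log2 fold change 1.53 ± 0.09 SE, adjusted p = 4.2e-68). Ndfip1 and Gnpda1, on the other side of Spry4, were the 2 that fell (log2 fold changes -0.42 ± 0.06 and -0.59 ± 0.06 SE).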
